A study of Mus musculus with 4 samples.

Results

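The 10 genes Atf4, Ddit3, Atf3, Xbp1, Trib3, Asns, Chac1, Psat1, Hspa5 and Hsp90b1 of the integrated stress response and the unfolded protein response were followed in tibialis anterior (TA) muscle, which lifts the foot, of young and old mice. They were chosen as named genes and looked up by symbol among 20340 gene labels, and all 10 had a value in every sample. The muscles came from wild type C57BL/6 mice aged 3 months (Young) or 20 months (Old), and mRNA-seq was done on 2 samples of each age (Old 1 and Old 2, Young 1 and Young 2). Whole muscle was used, so its blood vessels, nerve and connective tissue were included, and the methods describe the sex of the animals as randomly selected.

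In the integrated stress response, kinases that sense amino acid shortage, heme shortage, double-stranded RNA or unfolded protein phosphorylate the translation factor eIF2. General translation then slows while the mRNA of the transcription factor ATF4 is translated better, and ATF4 and its partners switch on genes for amino acid synthesis, amino acid uptake and, later, feedback and cell death. The unfolded protein response starts from the endoplasmic reticulum (ER) sensors PERK, IRE1 and ATF6, and raises the chaperones and folding machinery of the ER through XBP1 and ATF6. In skeletal muscle both responses are known from fasting, disuse, mitochondrial disease and exercise.

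The promoters of some of these genes are shown because 6 of the 10 genes carry DNA letters known as elements for ATF4 or ATF6, a feature that does not depend on the muscle data. Promoters of 300 bases, 250 before and 50 after the start given by RefSeq (mouse build GRCm38.p6, the same coordinates as mm10), were searched on both strands for all 10 genes and for 32851 promoters in all. The core of the amino acid response element, bound by ATF4 with C/EBP proteins, was searched as TGATGNAA, and the ER stress response element, bound by ATF6 with NF-Y, as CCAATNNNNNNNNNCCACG. In the following sequences, written 5′ to 3′ along the gene's strand, capitals mark the matched letters of these elements, and no match overlapped another.
Hspa5, chr2:34771840-34772089, plus strand: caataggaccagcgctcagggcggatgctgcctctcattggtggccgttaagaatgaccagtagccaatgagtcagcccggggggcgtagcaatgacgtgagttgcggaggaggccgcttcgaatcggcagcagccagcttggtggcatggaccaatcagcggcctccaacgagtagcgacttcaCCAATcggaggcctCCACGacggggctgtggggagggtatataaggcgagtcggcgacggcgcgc
Hsp90b1, chr10:86705445-86705694, minus strand: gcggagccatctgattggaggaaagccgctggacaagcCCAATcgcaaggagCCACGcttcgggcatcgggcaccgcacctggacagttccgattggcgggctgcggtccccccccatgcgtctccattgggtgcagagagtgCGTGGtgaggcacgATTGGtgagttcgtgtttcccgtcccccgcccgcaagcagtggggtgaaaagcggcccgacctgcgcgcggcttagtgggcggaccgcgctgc
Chac1, chr2:119351023-119351082, plus strand: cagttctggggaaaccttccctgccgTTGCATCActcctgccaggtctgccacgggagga
Atf3, chr1:191183410-191183469, minus strand: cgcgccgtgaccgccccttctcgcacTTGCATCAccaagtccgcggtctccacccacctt
Asns, chr6:7693210-7693269, minus strand: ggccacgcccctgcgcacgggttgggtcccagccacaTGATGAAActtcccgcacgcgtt
Trib3, chr2:152344031-152344054, minus strand: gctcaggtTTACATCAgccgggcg
The ER stress response element was found in 2 of the 10 genes, the chaperone genes Hspa5 (first base at -65 from the start) and Hsp90b1 (-212 on the gene's strand and -107 on the other strand), and in 0.119% of all promoters. The amino acid response element core was found in 4 of the 10, Chac1 (-193), Atf3 (-110), Asns (-23) and Trib3 (15 bases after the start), and in 3.97% of all promoters. In Chac1, Atf3 and Trib3 it lies on the other strand and so appears as its reverse complement. The unfolded protein response element TGACGTGG was found in 0 of the 10 genes and in 0.676% of all promoters. A match describes the letters in this window only and does not show that a factor binds there.

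Expression was measured as FPKM (sequenced fragments scaled by transcript length and by the mapped fragments of a sample), so levels may be compared between genes per length. FPKM hold no read counts, so the depth behind each value is unknown, and counting errors could not be computed. Of 20605 loci, 9558 were at 0 in Old 2 and 9452 in Young 1, against 5223 in Old 1 and 5335 in Young 2. The cause of this difference was not tested. Within an age, the samples stood apart by a ratio that changed with the level of the genes. Over genes with a mean of 10 to 30 FPKM its median was 1.98 for Old 1 over Old 2 and 1.96 for Young 2 over Young 1. Each sample was therefore divided by 1.46 (Old 1), 0.678 (Old 2), 0.685 (Young 1) or 1.47 (Young 2), which brings the 4 medians together, and the result is called scaled FPKM. Around these medians the samples of one age were close, with a robust SD of the log2 ratio over genes of 10 to 30 FPKM of 0.07 for either pair, against 0.40 between Old 1 and Young 2. The median of Old 1 over Old 2 was 4.87 at 0.3 to 1 FPKM, 2.80 at 1 to 3 and 2.16 at 3 to 10. From 10 to 300 FPKM the factors set the samples of an age further apart than the medians. Most genes of these levels were therefore left higher in Old 2 and Young 1. The labels do not tie a sample to an animal, so p-values measure only the spread between these samples, which may be technical. Age differences were tested with limma on log2(scaled FPKM + 1), a scale that understates the change of low genes, over the 10266 genes that reached 1 FPKM in 2 or more samples. At an adjusted p under 0.05, 519 (5.06%) of these were higher in old muscles and 770 (7.5%) lower.

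No change with age in the 10 stress response genes passed the threshold of this fit. Of the 8 genes that reached the filter, 0 were called higher and 0 lower in old muscles (limma, adjusted p from 0.13 to 1.00), beside the 5.06% and 7.5% of all tested genes. At an unadjusted p under 0.05 there was 1, Chac1, against 3430 of all 10266 genes. With FPKM as deposited 0 of the 8 were called in either direction, beside 0.302% of all tested genes. The median log2 difference of the 8 genes, Old minus Young, was 0.09, against -0.01 over all tested genes. Trib3 and Psat1 were below the filter and were not tested. Both old samples lay above both young samples in 4 of the 8, Hsp90b1, Hspa5, Chac1 and Xbp1, and below for 1, Atf3, while the ages overlapped for Atf4, Ddit3 and Asns. Over all tested genes 27.4% lay above and 28.5% below in this way. An exact two-sided permutation test of 2 samples against 2 cannot give a p under 0.33, and it gave 0.33 for these 5 genes. In whole muscle, fewer cells of a type and less RNA per cell cannot be told apart.

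**Figure D1:**
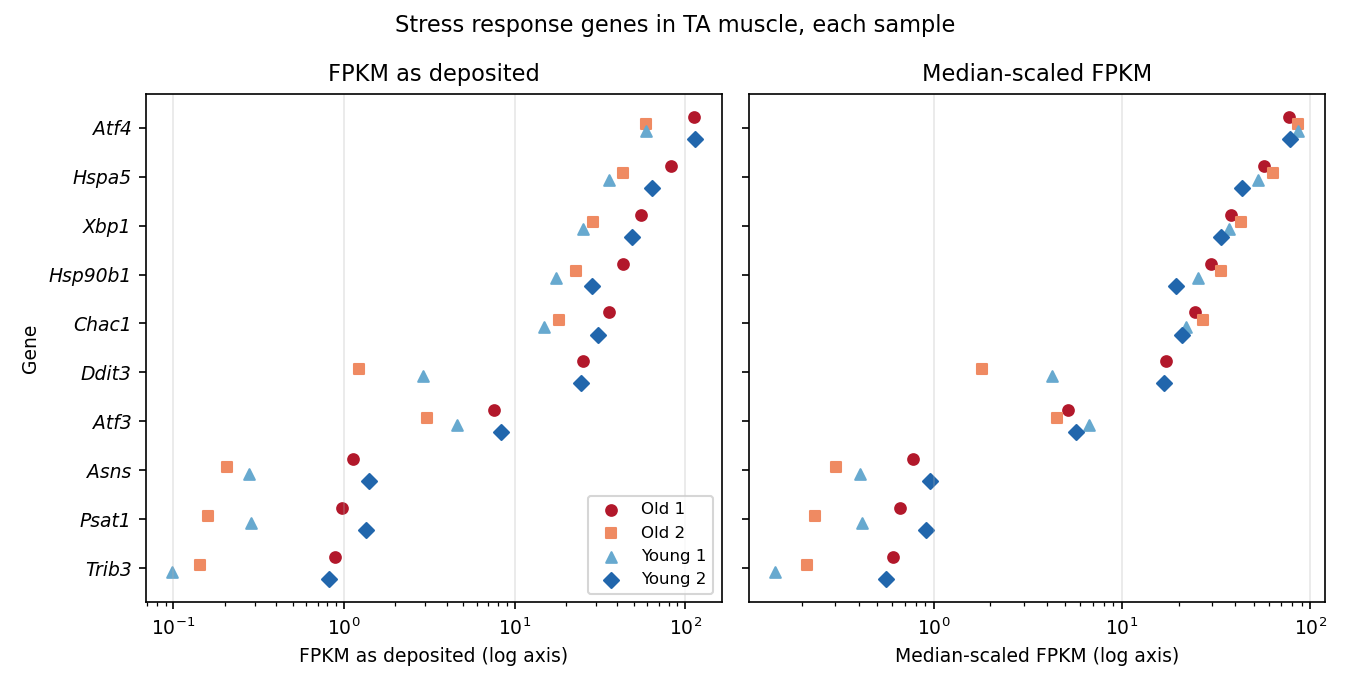
FPKM of the 10 stress response genes in each of the 4 samples, as deposited (left) and after median scaling (right), on log axes, with 1 symbol per sample. Genes from Atf4 down to Chac1 lie close together once scaled, while Ddit3, Asns, Psat1 and Trib3 remain higher in Old 1 and Young 2 than in Old 2 and Young 1.

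The 10 genes covered a wide range of levels. By mean scaled FPKM over the 4 samples, Atf4 was highest at 82.0, followed by Hspa5 at 53.9, Xbp1 at 37.6, Hsp90b1 at 27.0, Chac1 at 23.4, Ddit3 at 9.99 and Atf3 at 5.51. Asns, Psat1 and Trib3 were lowest at 0.607, 0.557 and 0.380. Atf4 exceeded 96.8% of all gene labels in level and Asns 50.5%, but among tested genes the shares were 93.7% and 3.48%. Sample ranges were separate between Atf4 and Hspa5, Hspa5 and Xbp1, Chac1 and Ddit3, and Atf3 and Asns. The ranges of Xbp1, Hsp90b1 and Chac1 overlapped each with the next, but those of Xbp1 and Chac1 were separate. Neighbouring ranges also overlapped for Ddit3 and Atf3 and for Asns, Psat1 and Trib3. Within every sample, Xbp1 was above Hsp90b1, and Trib3 was below Asns and Psat1. The order of Hsp90b1 and Chac1, of Ddit3 and Atf3, and of Asns and Psat1 differed between samples.

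**Figure D2:**
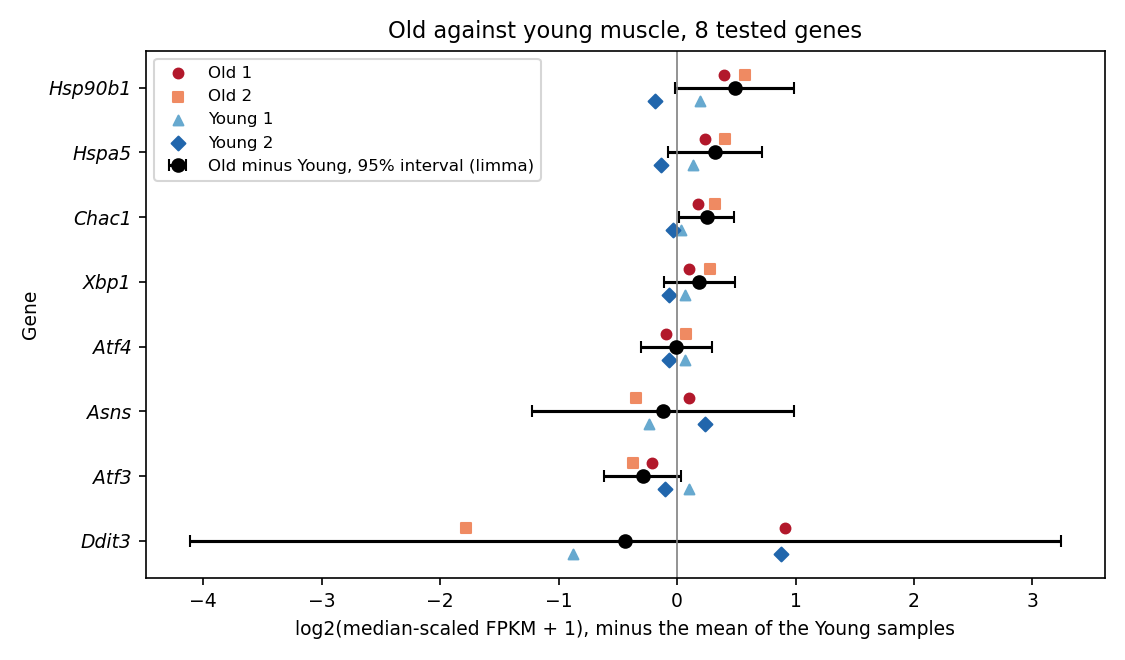
Values of the 8 tested genes on the log2(scaled FPKM + 1) scale, each set against the mean of the Young samples, with the Old minus Young difference and its 95% interval from limma in black. The interval lies above 0 for Chac1 (0.02 to 0.48) before adjustment over all genes, and the interval of Ddit3 is the widest of the 8.

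Atf4, the transcription factor at the centre of the integrated stress response, is on chromosome 15 from 80255184 to 80257541 (mm10 locus, as for all loci given here). Its FPKM was 113 in Old 1 and 58.7 in Old 2, against 59.1 in Young 1 and 115 in Young 2. Scaled, the values were 77.1, 86.5, 86.3 and 78.1 in the same order. Old and young samples were interleaved, with Old 1 lowest and Old 2 highest. Before scaling, Old 1 over Old 2 was 1.92 and Young 2 over Young 1 was 1.94. The medians of genes with a mean of 30 to 100 FPKM were 1.97 and 1.94. Most genes of this level were left higher in Old 2 and Young 1 by the scaling, as was Atf4. The log2 difference was -0.01 (SE 0.10, 95% interval -0.31 to 0.29, adjusted p = 1.00 from limma). ATF4 is controlled largely at translation, which FPKM do not measure.

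Xbp1, which IRE1 splices into the mRNA of an active transcription factor for ER genes, is on chromosome 11 from 5520967 to 5525872. Its FPKM was 55.2 in Old 1 and 28.9 in Old 2, against 25.2 in Young 1 and 49.0 in Young 2. Scaled, it was 37.7, 42.6, 36.8 and 33.4. The old samples were both above the young ones, Old 1 by a small margin over Young 1. The mean scaled level was 1.15-fold that of young muscles, with a log2 difference of 0.19 (SE 0.10, 95% interval -0.11 to 0.49, adjusted p = 0.31 from limma). The values are per gene, so the spliced form was not analysed here.

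Atf3, a stress-induced transcription factor that responds to ATF4 and to many other signals, is on chromosome 1 from 191170297 to 191183333. Its FPKM was 7.60 in Old 1 and 3.07 in Old 2, against 4.57 in Young 1 and 8.33 in Young 2. Scaled, it was 5.19, 4.53, 6.67 and 5.67. Both old samples were below both young samples, and Atf3 was the 1 tested gene of the 10 with this order. The mean scaled level was 0.787-fold that of young muscles, with a log2 difference of -0.29 (SE 0.11, 95% interval -0.62 to 0.04, adjusted p = 0.183 from limma).

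Ddit3 encodes CHOP, the transcription factor linked to cell death after prolonged ER stress, and its locus on chromosome 10 from 127290756 to 127311786 has the same coordinates as that of Mars, a methionyl-tRNA synthetase gene. Fragments of genes that share a locus could be divided between them by the authors' counting, so the level of Ddit3 is uncertain. Its FPKM was 25.1 in Old 1 and 1.22 in Old 2, against 2.90 in Young 1 and 24.6 in Young 2. Scaled, it was 17.2, 1.80, 4.24 and 16.8. Ddit3 was high in Old 1 and Young 2 and low in the other two, a split within each age. Old 1 exceeded Old 2 by 20.6-fold and Young 2 exceeded Young 1 by 8.49-fold, at percentiles 99.6 and 98.9 of the 2086 genes with a mean of 10 to 30 FPKM. Mars, by contrast, had scaled values of 27.5 and 29.6 in the old and 28.6 and 30.1 in the young samples. With this spread the log2 difference of Ddit3 was -0.44 (SE 1.24, adjusted p = 0.929 from limma), and its 95% interval ran from -4.11 to 3.24. The fit without Old 2 gave 0.91 and that without Young 2 gave 0.45, against -0.44 with all 4 samples.

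**Figure D3:**
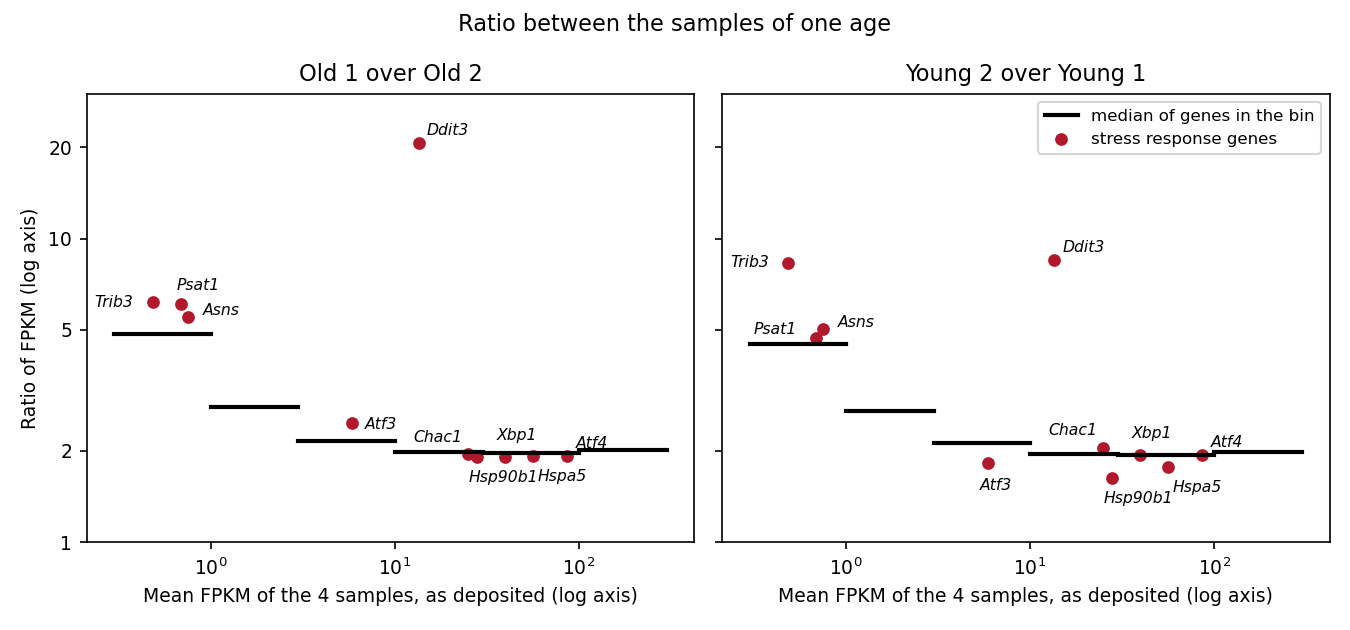
Ratio of deposited FPKM between the samples of one age (left, Old 1 over Old 2, and right, Young 2 over Young 1) against the mean FPKM of the gene, on log axes, with bars for the median of all genes in each range of level. Ddit3 lies far above its bar at 20.6 and 8.49, while Trib3, Psat1 and Asns lie above the bars of low genes, which are at 4.87 and 4.51.

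Chac1, a target of the ATF4, ATF3 and CHOP cascade that breaks down glutathione, is on chromosome 2 from 119351242 to 119354327. Its FPKM was 35.6 in Old 1 and 18.2 in Old 2, against 14.9 in Young 1 and 30.6 in Young 2. Scaled, it was 24.3, 26.9, 21.8 and 20.8. The old pair lay above the young pair, by 1.20-fold in the mean. The log2 difference was 0.25 (SE 0.08, 95% interval 0.02 to 0.48, unadjusted p = 0.0407), and the adjusted p from limma was 0.13.

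The other 3 ATF4 targets were low in all samples. Trib3, a pseudokinase that feeds back on ATF4 and CHOP, is on chromosome 2 from 152337425 to 152344060 and had 0.886 FPKM in Old 1 and 0.144 in Old 2, against 0.0985 in Young 1 and 0.820 in Young 2. Asns, asparagine synthetase, is on chromosome 6 from 7675171 to 7693182 and had 1.13 FPKM in Old 1 and 0.205 in Old 2, against 0.276 in Young 1 and 1.39 in Young 2. Psat1, an enzyme of serine synthesis, is on chromosome 19 from 15905123 to 15925059 and had 0.969 FPKM in Old 1 and 0.159 in Old 2, against 0.286 in Young 1 and 1.34 in Young 2.
All 3 had overlapping ages, with 1 sample of each age 4.69 to 8.33 times the other. Other low genes had similar ratios: the median of the 1358 genes with a mean of 0.3 to 1 FPKM was 4.87 for Old 1 over Old 2 and 4.51 for Young 2 over Young 1, which division by 1 factor per sample does not remove. Scaled, Asns was 0.774 and 0.303 in the old and 0.403 and 0.949 in the young samples, with a log2 difference of -0.12 (SE 0.37, 95% interval -1.23 to 0.98, adjusted p = 0.938 from limma). The fit without Old 2 gave 0.10 and that without Young 2 gave 0.12. The differences of Trib3 and Psat1, 0.06 and -0.20, were not tested.

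The 2 ER chaperone genes had the largest positive differences among the 8 tested genes. Hspa5 encodes BiP, the chaperone that holds the ER sensors inactive until unfolded protein draws it away, and lies on chromosome 2 from 34772090 to 34776529. Its FPKM was 82.7 in Old 1 and 42.9 in Old 2, against 35.9 in Young 1 and 63.7 in Young 2. Scaled, it was 56.5, 63.3, 52.4 and 43.4. Each old sample exceeded each young sample, and Old 1 was nearer to Young 1 than the young samples were to each other. The mean scaled level was 25.0% above that of young muscles, with a log2 difference of 0.32 (SE 0.13, 95% interval -0.07 to 0.71, adjusted p = 0.211 from limma).
Hsp90b1 encodes GRP94, the HSP90 of the ER, on chromosome 10 from 86690841 to 86705444. Its FPKM was 43.3 in Old 1 and 22.8 in Old 2, against 17.4 in Young 1 and 28.4 in Young 2. Scaled, it was 29.6, 33.5, 25.5 and 19.3. The old samples were again the higher pair. The mean scaled level was 41.0% above that of young muscles, with a log2 difference of 0.49 (SE 0.17, 95% interval -0.02 to 0.99, adjusted p = 0.158 from limma). This difference was above that of 91.7% of all tested genes, and that of Hspa5 above 83.3%. These are the 2 genes whose printed promoters hold the ER stress response element, and a part of the element in their differences was not tested. For both, the young samples stood further apart after scaling than in most genes of their level, since Young 2 over Young 1, before scaling, was only 1.63 for Hsp90b1 and 1.77 for Hspa5, percentiles 1.53 and 2.88 of genes in the same range.

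The rest of the pathway was described from 8 lists that hold 146 other genes. Values were complete for 126 of them. The loci with values end, in text order, on chromosome 7 (Old 1 and Young 2) or 8 (Old 2 and Young 1). Genes without a value in any sample included Calr, Hyou1, Manf, Ppib, Herpud1, Gdf15, Eif4ebp1, Slc7a5 and Aars, so the counts here do not cover them. Of the 126 genes, 117 were tested. In old muscles 4 (3.42%) rose and 11 (9.40%) fell (limma, adjusted p under 0.05), beside 5.06% and 7.5% of all tested genes. The median log2 difference of the 117 genes was 0.02. Without overlap of the ages, old muscles were above young in 35 and below in 34, beside 27.4% and 28.5% of all tested genes. These calls moved with the scaling. Leaving out a sample leaves 1 of its age and weakens the test whichever sample is taken out. Dependence on single samples therefore cannot be read from counts of calls. With FPKM as deposited 0 rose and 1 fell, with the median of ratios 0 and 1, with quantile normalization 0 and 2, and with equal summed FPKM 0 and 0. The same scalings gave 18 higher and 13 lower, 24 and 22, 91 and 136, and 7 and 5 over all tested genes, so the balance of the calls moves with the scaling as well.

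**Figure D4:**
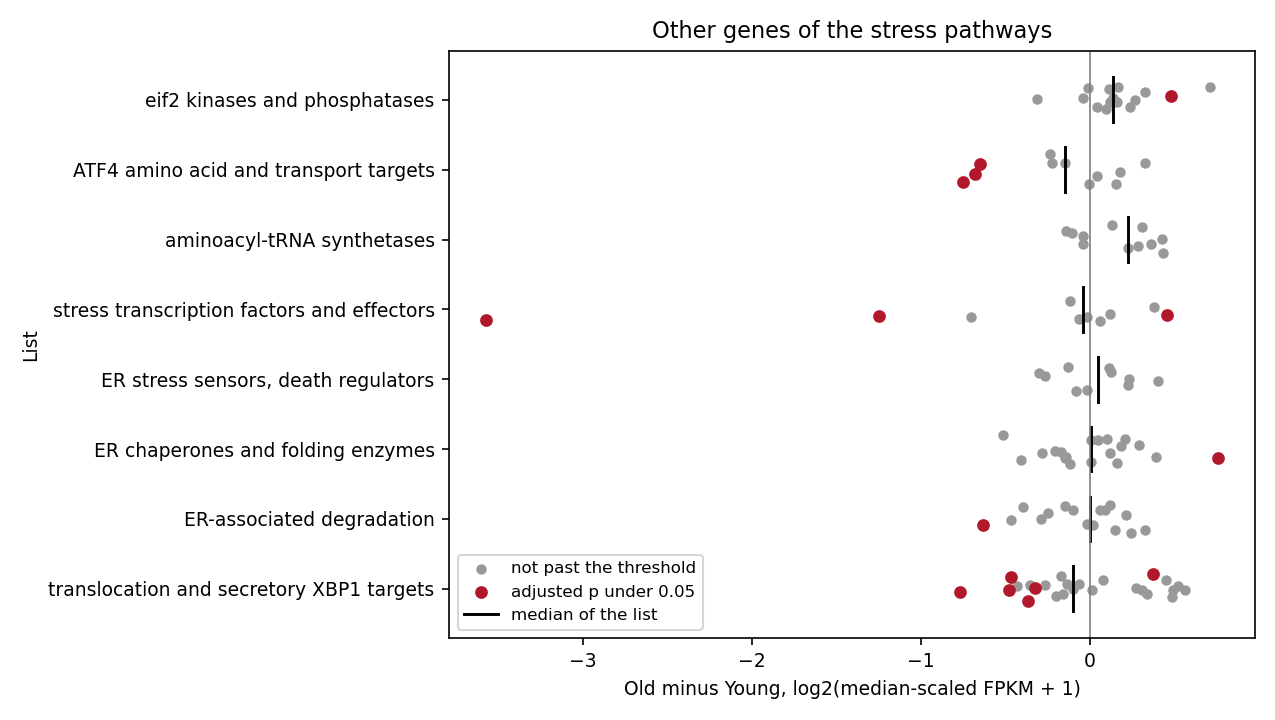
Old minus Young difference of log2(scaled FPKM + 1) for each tested gene of the 8 pathway lists, with red points for an adjusted p under 0.05 in limma and a bar at the median of each list. Ddit4 stands alone at -3.57, and the list medians lie between -0.15 and 0.23.

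Ddit4, also known as REDD1, a stress-induced inhibitor of the growth kinase mTORC1, fell furthest. Scaled FPKM was 4.73 and 4.19 in the old and 65.1 and 63.0 in the young samples, so the young level was 14.3-fold the old. The log2 difference was -3.57 (SE 0.08, adjusted p = 0.017 from limma), and Ddit4 was the 1 pathway gene also called with FPKM as deposited (adjusted p = 0.0463 from limma). Cebpb, a C/EBP factor that pairs with ATF4, was 12.6 and 13.2 against 33.8 and 30.3 and fell by 1.25 on the log2 scale (SE 0.08, adjusted p = 0.0236 from limma). Vldlr, a lipoprotein receptor gene under ATF4, was 42.5 and 45.6 against 32.8 and 30.8 and rose by 0.46 (SE 0.07, adjusted p = 0.0482 from limma). These 3 were the calls among 10 tested stress transcription factors and effectors, whose median was -0.04 (2 higher and 3 lower at an unadjusted p under 0.05).

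Among 11 tested genes of amino acid uptake and synthesis, 0 rose and 3 fell, with a median of -0.15, and at an unadjusted p under 0.05 the counts were also 0 and 3. The glutamine transporter gene Slc1a5 had scaled FPKM of 7.19 and 6.85 in the old and 12.6 and 12.4 in the young samples, and fell by 0.75 on the log2 scale. Shmt2, the mitochondrial serine hydroxymethyltransferase, had 10.4 and 10.5 against 17.5 and 17.2 and fell by 0.68. The neutral amino acid transporter gene Slc38a2 had 27.1 and 29.2 against 46.9 and 42.6 and fell by 0.65. Adjusted p from limma was 0.0236, 0.024 and 0.0378. The aminoacyl-tRNA synthetases charge tRNAs with amino acids and are also targets of ATF4. Their list, which also holds the tRNA export gene Xpot, had a median of 0.23 over 11 tested genes. Without overlap of the ages 6 were above and 1 below, beside 27.4% and 28.5% of all tested genes. Limma called 0 in either direction (3 higher and 0 lower at an unadjusted p under 0.05, which 3430 of all 10266 genes reached).

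A list of 15 genes held the eIF2 kinases, the phosphatases that reverse them and the eIF2B exchange factor. It also held Eif2s1, a subunit gene of eIF2, and Dnajc3 and Impact, genes for inhibitors of the kinases. Of the 15, 1 rose and 0 fell (3 and 1 at an unadjusted p under 0.05), with a median of 0.14. The gene called was Eif2b3, a subunit of eIF2B, at 10.98 and 11.5 scaled FPKM in the old against 7.94 and 7.55 in the young samples (log2 difference 0.48, SE 0.06, adjusted p = 0.0339 from limma). Ppp1r15a, which encodes GADD34, the phosphatase subunit that ends the response, was chosen here after its values were seen, for the highest log2 difference of this list. It had 9.16 and 9.89 scaled FPKM in the old against 6.14 and 4.78 in the young samples, a log2 difference of 0.71 (SE 0.13, adjusted p = 0.0581 from limma).
The 4 kinases that start the response gave no call. Eif2ak1, the heme-regulated kinase, had scaled FPKM of 24.9 and 10.9 in the old and 9.07 and 23.4 in the young samples, the same split within each age as Ddit3 (log2 difference 0.17, SE 0.65, adjusted p = 0.965 from limma). Eif2ak2, the kinase for double-stranded RNA, which shares its locus label with Gm6548, had 1.88 and 1.31 against 0.820 and 1.31 (log2 difference 0.33, adjusted p = 0.425 from limma). Eif2ak3, which encodes PERK, had 1.12 and 0.915 against 0.792 and 0.991 (0.09, adjusted p = 0.873 from limma). For these 3 kinases the ages overlapped. Eif2ak4, which encodes the amino acid sensor GCN2, had 1.53 and 1.42 against 1.21 and 1.33, without overlap (0.12, adjusted p = 0.634 from limma).

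The list of ER stress sensors, which also holds the cell death regulators Bax, Bak1, Tmbim6 and Bfar, gave 0 calls in either direction among 10 tested genes, with a median of 0.05. At an unadjusted p under 0.05 in limma 2 were higher (Bfar and Creb3l2) and 2 lower (Bax and Atf6b), named after their values were seen. Ern1, which encodes the IRE1 that splices Xbp1, had scaled FPKM of 2.79 and 2.95 in the old against 3.33 and 3.13 in the young samples (log2 difference -0.13, SE 0.07, adjusted p = 0.313 from limma). Atf6 had 5.26 and 5.88 against 5.95 and 5.34 (-0.02, adjusted p = 0.981 from limma). The ages did not overlap for Ern1 and overlapped for Atf6.
Of 19 other ER chaperones and folding enzymes, 1 rose and 0 fell (2 and 1 at an unadjusted p under 0.05), with a median of 0.01 and a range from -0.51 to 0.76. The gene that rose was Sil1, the nucleotide exchange factor of BiP, with 10.4 and 11.1 scaled FPKM in the old against 6.07 and 5.81 in the young samples (log2 difference 0.76, SE 0.06, adjusted p = 0.0246 from limma). Of 16 genes of ER-associated degradation, 0 rose and 1 fell (1 and 4 at an unadjusted p under 0.05), with a median of 0.00. It was Ube2j1, a ubiquitin-conjugating enzyme of the ER membrane, with 7.97 and 8.68 against 14.1 and 12.8 (log2 difference -0.63, adjusted p = 0.0364 from limma).
Of 25 genes of translocation into the ER and of the secretory pathway, 1 rose and 5 fell, with a median of -0.10. At an unadjusted p under 0.05 the counts were even, 8 higher and 8 lower, and 9 lay above and 10 below without overlap. Sec61a1, the channel of the translocon, had 5.58 and 5.83 scaled FPKM in the old against 10.9 and 10.01 in the young samples and fell by 0.77 on the log2 scale. Tram1, which lies beside that channel, had 4.94 and 4.91 against 7.35 and 7.16 and fell by 0.48. Sec11a, a catalytic subunit of signal peptidase, had 16.3 and 16.03 against 21.7 and 23.7 and fell by 0.46. Adjusted p from limma was 0.0262, 0.0296 and 0.0434. The remaining calls, named after their values were seen, were Srp54a, which rose by 0.38, and Sec23b and Kdelr2, which fell by 0.36 and 0.32.

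Of the 102 pathway genes with a promoter, 6 held the ER stress response element, and limma called 0 of the 5 that were tested in either direction, with differences from -0.39 to 0.18 and 1, Syvn1, at an unadjusted p under 0.05. The amino acid response element core was held by 13, of which 10 were tested, with a median of 0.17 and 1 called, Vldlr. TGACGTGG was held by 6 tested genes with a median of -0.30 and 1 called, Ube2j1, which was lower and alone had an unadjusted interval without 0. Over all tested genes 5.06% were called higher and 7.5% lower, and 3430 of 10266 had an unadjusted p under 0.05 in limma.

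The tissue and the other cells in it were checked with marker lists, and names given here were picked after their values were seen. Myofiber genes were plentiful, with summed scaled FPKM of 55817 in Old 1 and 17749 in Old 2, against 27178.5 in Young 1 and 53485 in Young 2. These sums thus stayed higher in Old 1 and Young 2 after scaling. However, Ckm was listed at 0 in all 4 samples and Tnnt3 and Ttn in both old samples. Of 6 myofiber genes tested, 0 were called higher, and the 1 called lower was Tnnt3, whose call rests on those listed values of 0 and cannot be read as lower expression. All 5 slow fiber genes were higher in old muscles, with a sum of 620 to 797 against 40.8 to 49.7. Fibroblast genes summed to 122 to 136 in the old and 178 to 193 in the young samples, and 3 of 6 were called lower (Col1a1, Col3a1 and Col1a2), while Dcn and Pdgfra had both old samples above both young samples (log2 differences 0.30 and 0.15, not called). Leukocyte genes summed to 10.6 to 15.3 against 17.4 to 22.2 (1 of 5 lower, Lyz2), and most of each sum was Lyz2. Endothelial genes summed to 46.3 to 50.3 against 55.0 to 60.9 (1 of 5 lower, Tie1). Without overlap of the ages, 2 of the 5 tested leukocyte genes and 3 of the 5 endothelial genes lay below, and 0 above. The ages overlapped for Cd14 (log2 difference 0.008), Kdr (0.03), Tek (0.004) and Ptprc, which was not tested. Adipocyte sums overlapped, at 246 to 303 against 267 to 340, and most of each was Fabp4 (log2 difference -0.14). Limma called 0 of 4 in either direction (1 higher and 0 lower at an unadjusted p under 0.05), and Cfd was listed at 0 in Old 2 and Young 1. Adipoq (log2 difference 0.82) and Lep, which was not tested, had both old samples above both young samples, while Fabp4, Plin1 and Cfd overlapped. Immediate-early genes, which respond to handling and dissection as well as to stimuli, summed to 119 to 122 against 90.3 to 91.9, and 3 of 6 were called higher (Fos, Egr1 and Dusp1) and 1 lower (Zfp36). The part of fiber type, of these other cells and of the immediate-early response in the values of the stress response genes was not tested.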

How the data were processed

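mRNA-seq was performed on TA muscle of 2 samples per age, although the design text speaks of 3. Per the study's methods and the submitters' processing notes, the authors trimmed reads, removed PCR duplicates, aligned to mm10 with TopHat2 (2.0.10) guided by RefSeq genes, and deposited FPKM per locus from Cufflinks for each sample. Differential expression was called by the authors with Cuffdiff (2.1.1), which needs aligned reads and was not repeated. The labels name a TruSeq RNA kit and the methods a stranded one, so whether counting used strand is unclear.

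Values were complete for 20605 loci in all 4 samples. A further 542 loci, late in text order of chromosomes, had no value in all 4 and were left out of the tests, and 1 incomplete last line per sample was left out. Loci of one symbol were summed to 20340 labels. Depth is unknown. Each sample was scaled to a common median over 7228 genes with at least 1 FPKM in all 4 samples, and log2(scaled FPKM + 1) was fitted with limma 3.58.1 in R 4.3.3 (lmFit, eBayes with trend, two-sided, Benjamini-Hochberg over 10266 genes with at least 1 FPKM in 2 samples, adjusted p under 0.05). Intervals are 95% intervals with 3.41 degrees of freedom. The fit was tested on simulated data with the same spread and the same ratio between samples at all levels, so that test does not cover low genes. The rest was done in Python 3.11.15 with numpy 2.4.6, pandas 2.3.3, matplotlib 3.10.9 and scipy 1.17.1.

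The genes, the lists, the markers and the scaling were chosen with earlier results of these data known. Named were the 10 genes, up to 3 genes per pathway list with the largest difference among those called without overlap of the ages, 6 stress sensors (Eif2ak1, Eif2ak2, Eif2ak3, Eif2ak4, Ern1, Atf6) whatever their values, and marker genes at 0; others are marked as chosen later. One marker list is not reported here. Promoters were matched by symbol for all 10 genes and for 102 of the pathway genes. Alternatives were other scalings, a pseudocount of 0.1, other filters, the highest locus per symbol, no trend, the replicate number as a block, a 1.5-fold threshold without a test, each sample left out, and the samples of an age counted as 1. Pairs crossed between the numbers were added after seeing the data.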

Additional observations from a re-analysis of the deposited data

How the results depend on the processing

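The count of stress response genes called, 0 higher and 0 lower, was the same under all alternatives run except the crossed pairs. The counts for the 117 tested pathway genes, 4 higher and 11 lower, moved to 0 and 1 with FPKM as deposited and with the median of ratios, 0 and 2 with quantile normalization, 0 and 0 with equal summed FPKM and with no filter, 15 and 19 when each sample had to reach 1 FPKM, and 0 and 4 without the trend. They were 4 and 12 with a pseudocount of 0.1, 4 and 13 with the highest locus per symbol, and 3 and 9 at 1.5-fold without overlap and without a test. With each sample left out in turn, which leaves 1 sample of an age assumed to vary like the other age, they ranged from 0 to 2 higher and from 0 to 7 lower. Over all genes, higher and lower calls were 519 and 770 with the scaling used, 583 and 836 with a pseudocount of 0.1, 1143 and 1278 (of 7228) when each sample had to reach 1 FPKM, 96 and 169 without the trend, and 0 and 0 in limma with no filter, where 3153 had an unadjusted p under 0.05.

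Hsp90b1, Hspa5, Chac1, Xbp1 and Atf3 kept their direction in 17 of 17 alternatives each, of which the filters and blocks cannot move the estimate. The ages did not overlap for these genes. A sample left out, crossed pairs, the samples of an age counted as 1 and another pseudocount therefore could not reverse the direction. The other scalings could have reversed the direction of these genes. With a sample left out, their sizes moved: Hsp90b1 from 0.30 (without Young 2) to 0.68 (without Young 1), Hspa5 from 0.19 (without Young 2) to 0.45 (without Young 1), Chac1 from 0.18 (without Old 2) to 0.32 (without Old 1), Xbp1 from 0.10 (without Old 2) to 0.28 (without Old 1), and Atf3 from -0.39 (without Young 2) to -0.19 (without Young 1). Atf4, near 0, turned to 0.0085 with the median of ratios, 0.020 with quantile normalization and 0.097 with equal summed FPKM, and ranged from -0.090 to 0.074 with a sample left out (0.074 without Old 1, 0.063 without Young 1). Ddit3 ranged from -1.78 to 0.91 (0.91 without Old 2, 0.45 without Young 2) and Asns from -0.36 to 0.12 (0.10 without Old 2, 0.12 without Young 2). The cause was not tested.

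The labels give the ages the same numbers, but nothing says that a number marks a shared animal or day. Deviations from the mean of the age correlated at -0.903 across genes between samples with the same number, and with 2 samples per age the crossed value follows as 0.903. With the replicate block, the pairing by number, the stress response genes called were 0 and 0, the pathway genes 0 and 1 (Ddit4), and all genes 23 and 20. With pairs crossed between the numbers as the block, chosen after seeing the data, they were 4 (Xbp1, Chac1, Hspa5 and Hsp90b1) and 0, 44 and 42, and 3204 and 3521.

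FPKM hold no counts, so no limit set by depth is given. The unadjusted 95% intervals were widest for Ddit3 (-4.11 to 3.24) and Asns (-1.23 to 0.98), and Trib3 and Psat1 have none.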

Other observations

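Values of 2 further stress response genes were analysed in Old 2 and Young 1 only, with no replicate and no test. Cars, a cysteinyl-tRNA synthetase gene, had 8.13 FPKM in Old 2 and 5.49 FPKM in Young 1, a ratio of 1.48. Nupr1, a stress-induced chromatin protein gene under ATF4, had 3.21 FPKM in Old 2 and 2.11 FPKM in Young 1, a ratio of 1.52. The scaling factors of these samples, 0.678 and 0.685, are close to each other.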
